A study of Mus musculus with 24 samples.

Results

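The genes described here are 10 protein-coding genes that lie on mouse chromosome 16 close to Dyrk1a: Morc3, Hlcs, Pigp, Ttc3, Dscr3, Kcnj6, Ets2, Psmg1, Brwd1 and Hmgn1. They were taken by name from a list and not by any measured value. That list was chosen with earlier results of these data known. All 10 were found among the 18240 genes of the deposited table, and all 10 had a mean of at least 10 normalised counts, the minimum for testing, which 16825 genes met. Dscr3 is annotated as Vps26c and was matched through its synonym in RefSeq. The question was whether any of them differed between wild-type mice and mice that carry 1 mutant copy of Dyrk1a.

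Polyadenylated RNA of prefrontal cortex, taken from mice aged 40 days after birth, was sequenced in bulk. The 24 libraries form 4 arms of 6, each with 3 female and 3 male libraries: mice heterozygous for the Dyrk1a allele that the labels name I48X (HT) given vehicle, HT given fluoxetine, a serotonin reuptake inhibitor, HT given lithium, a mood stabiliser, and wild type (WT) given vehicle. Every sample is labelled C57BL/6J, so a difference of strain between HT and WT is not on record. No WT library received a drug, and the sources used here give no doses or treatment times. Whether the 24 libraries come from 24 animals is not stated. The p-values therefore rest on the spread among libraries, part of which may be technical. Each library held between 24133344 and 35940460 recovered reads.

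Dyrk1a encodes a kinase that phosphorylates many neuronal and nuclear proteins, and a normal brain needs both copies of it. Its stretch of mouse chromosome 16 matches the part of the human chromosome that is triplicated in Down syndrome, and several of the neighbours are studied there as dosage-sensitive genes. A mutant allele that is kept in a mouse line is inherited together with the DNA next to it, so the genes closest to it are the ones that share its chromosome most often.

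In GENCODE M21 on GRCm38 the 11 loci span 2.3 Mb. Distances are given from the Dyrk1a start site (chr16:94570010-94695517, plus strand) to each start site, negative towards lower coordinates. On that side Morc3 (chr16:93832121-93876073, plus strand) starts at -737.9 kb, Hlcs (chr16:94128882-94313571, minus strand) at -256.4 kb, Ttc3 (chr16:94370618-94469343, plus strand) at -199.4 kb, Pigp (chr16:94358763-94371842, minus strand) at -198.2 kb and Dscr3 (chr16:94497783-94526830, minus strand) at -43.2 kb. On the other side Kcnj6 (chr16:94748636-94997701, minus strand) starts at 427.7 kb, Ets2 (chr16:95702075-95721051, plus strand) at 1132.1 kb, Psmg1 (chr16:95979933-95990960, minus strand) at 1421.0 kb, Brwd1 (chr16:95992092-96082526, minus strand) at 1512.5 kb and Hmgn1 (chr16:96120618-96127729, minus strand) at 1557.7 kb. Dscr3 is the nearest, with 43.2 kb between the gene bodies. Pigp and Ttc3 are read in opposite directions from overlapping starts and share 1225 bases. The kit keeps the strand, but whether it was used in counting is not given in the sources used here. It is thus not known whether reads in the shared bases were told apart.

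The promoters of 4 neighbours are shown because these genes varied most between libraries or, for Ttc3, had the highest level per length. Each is a RefSeq window on GRCm38.p6, from 250 bases before to 50 bases after the start site, written 5′ to 3′ along the gene. Capitals mark matches, on either strand, to 8 short motifs: the TATA box with the letters TATAAA, the CCAAT box, the GC box with GGGCGG, the ETS motif with CCGGAAGT, the CRE with TGACGTCA, the NRF1 motif with TGCGCATGC, the YY1 motif with AAGATGGCG and the E-box with CACGTG. The windows are Hmgn1 at chr16:96127676-96127975 on the minus strand, Ets2 at chr16:95702157-95702456 on the plus strand, Kcnj6 at chr16:94997647-94997946 on the minus strand and Ttc3 at chr16:94370489-94370788 on the plus strand.
Hmgn1: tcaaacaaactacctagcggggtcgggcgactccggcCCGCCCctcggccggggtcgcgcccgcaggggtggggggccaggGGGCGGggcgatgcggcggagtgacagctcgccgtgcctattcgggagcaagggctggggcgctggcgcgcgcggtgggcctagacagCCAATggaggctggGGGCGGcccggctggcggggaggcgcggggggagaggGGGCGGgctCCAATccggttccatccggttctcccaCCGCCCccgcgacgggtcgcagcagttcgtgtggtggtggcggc
Ets2: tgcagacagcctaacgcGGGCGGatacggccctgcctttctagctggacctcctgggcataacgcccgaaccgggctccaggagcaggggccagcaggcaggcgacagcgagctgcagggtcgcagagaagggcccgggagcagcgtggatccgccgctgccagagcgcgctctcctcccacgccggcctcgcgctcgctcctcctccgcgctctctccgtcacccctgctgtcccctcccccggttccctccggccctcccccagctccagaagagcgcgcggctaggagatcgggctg
Kcnj6: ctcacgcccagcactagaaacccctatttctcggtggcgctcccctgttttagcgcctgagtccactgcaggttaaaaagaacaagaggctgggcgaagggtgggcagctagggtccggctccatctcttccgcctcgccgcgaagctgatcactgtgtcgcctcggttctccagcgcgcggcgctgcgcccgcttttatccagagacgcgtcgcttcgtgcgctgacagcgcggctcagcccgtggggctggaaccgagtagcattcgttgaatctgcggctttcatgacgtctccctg
Ttc3: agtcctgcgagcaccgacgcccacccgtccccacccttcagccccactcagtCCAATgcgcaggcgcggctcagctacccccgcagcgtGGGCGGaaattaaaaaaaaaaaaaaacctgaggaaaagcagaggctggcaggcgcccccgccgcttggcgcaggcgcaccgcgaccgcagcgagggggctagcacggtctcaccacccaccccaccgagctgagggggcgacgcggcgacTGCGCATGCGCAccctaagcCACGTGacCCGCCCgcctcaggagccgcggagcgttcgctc

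The Hmgn1 window held 5 GC boxes and 2 CCAAT boxes, and the Ets2 window held 1 GC box. No listed motif was matched in the Kcnj6 window. In Ttc3 the run of 12 capitals is a pair of NRF1 matches, 1 on each strand, that overlap each other. An E-box, a CCAAT box and 2 GC boxes also stood in that window. Among all 32851 promoters in the RefSeq table, 35.7% held a GC box, 37.4% a CCAAT box, 7.15% an E-box and 1.52% the NRF1 letters. Of the 10 neighbours, 8 held a GC box, 3 a CCAAT box (Morc3, Ttc3 and Hmgn1), 1 an ETS match (Dscr3) and 0 a TATA box, which 13.6% of all promoters held. ETS letters stood in 3.89% of promoters, CRE letters in 1.79% and YY1 letters in 1.40%, and no neighbour held either of the last. Their windows were 52.7% to 80.0% G and C with 20 to 52 CpG dinucleotides, against medians of 52.7% and 7 over all promoters. Of 4 Pigp windows in the table, 3 overlapped the Ttc3 window on the opposite strand, by 92, 128 and 288 bases. These matches describe the letters and say nothing of what is bound there.

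Dyrk1a itself was measured first, as a check of the labels. It had a median normalised count of 2365 in HT vehicle libraries (2254 to 2431), 2457 in HT fluoxetine libraries (2353 to 2589), 2454 in HT lithium libraries (2254 to 2584) and 2169 in WT vehicle libraries (2088 to 2349). HT libraries were the higher ones: 18 of 18 lay above the WT mean, although the ranges overlapped. The difference between all HT arms and WT vehicle was 0.14 ± 0.030 on the log2(value + 1) scale (SE), with limma's adjusted p at 0.518, edgeR's at 0.485 and DESeq2's at 0.0085. Only the DESeq2 test thus passed 0.05. The count of reads per gene does not separate the 2 alleles, so it does not show the genotype, and lower Dyrk1a in HT was not seen.

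The tissue label was checked with marker genes. All 8 markers of cortical excitatory neurons, among them Slc17a7, the vesicular glutamate transporter of cortical neurons, were in the table, and their summed level was at least 38051 normalised counts in any library. All 7 olfactory bulb markers were also present, none at 0 in every library, and their sum ran from 1769.7 to 19346 in HT vehicle, 1814 to 26071 in HT fluoxetine, 1353 to 23666 in HT lithium and 1839 to 22381 in WT vehicle libraries. In 6 libraries the bulb marker score, the mean deviation of the log2 values of these genes, was between 2.23 and 2.74, against at most 1.47 in the other 18. They are HT vehicle female 2 and male 3, HT fluoxetine female 1 and male 1, HT lithium male 1 and WT vehicle female 2. The same score for the 8 cortical markers was lower in these 6, at -0.67 to -0.35, against 0.026 to 0.27 in the other 18. HT vehicle female 1 and HT fluoxetine female 2 had the most Ttr, a choroid plexus gene, and HT vehicle male 1 and WT vehicle female 1 the most Drd2, a striatal gene. Values without the libraries of high bulb score, or with that score as a covariate, are given beside several of the comparisons.

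No neighbour was called in HT brains. Between all HT arms and WT vehicle, 0 of 10 had an adjusted p under 0.05 by limma, Benjamini-Hochberg over all genes tested, where 0% of all genes were called. The counts were also 0 of 10 by edgeR and by DESeq2, which called 0 and 7 of the 16825 genes tested. At an unadjusted p under 0.05 there were 0 of 10 by each of the 3 tools, where limma had 2.69% of all genes. That share is not given here for edgeR and DESeq2. The 18 HT and 6 WT libraries overlapped for 10 of 10 neighbours, and ranges that did not overlap were found for 0.0119% of all genes. Of the differences, 5 were above 0 and 5 below, from -0.07 (Kcnj6) to 0.065 (Psmg1). Without the 6 libraries of high bulb score 3 of 10 had the other sign: Kcnj6 was 0.066 ± 0.056, Ets2 0.047 ± 0.055 and Hmgn1 -0.095 ± 0.079 (log2, SE). The median size of the difference was 0.046 for the neighbours and 0.046 for all genes tested. As a change in percent of the WT level, the narrowest 95% interval was -1.82% to 8.87% for Dscr3, and the widest were -24.7% to 22.4% for Ets2 and -21.1% to 32.9% for Hmgn1. A p above the threshold does not show that the levels were equal, and in bulk tissue fewer cells of a type and less RNA per cell cannot be told apart.

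**Figure D1:**
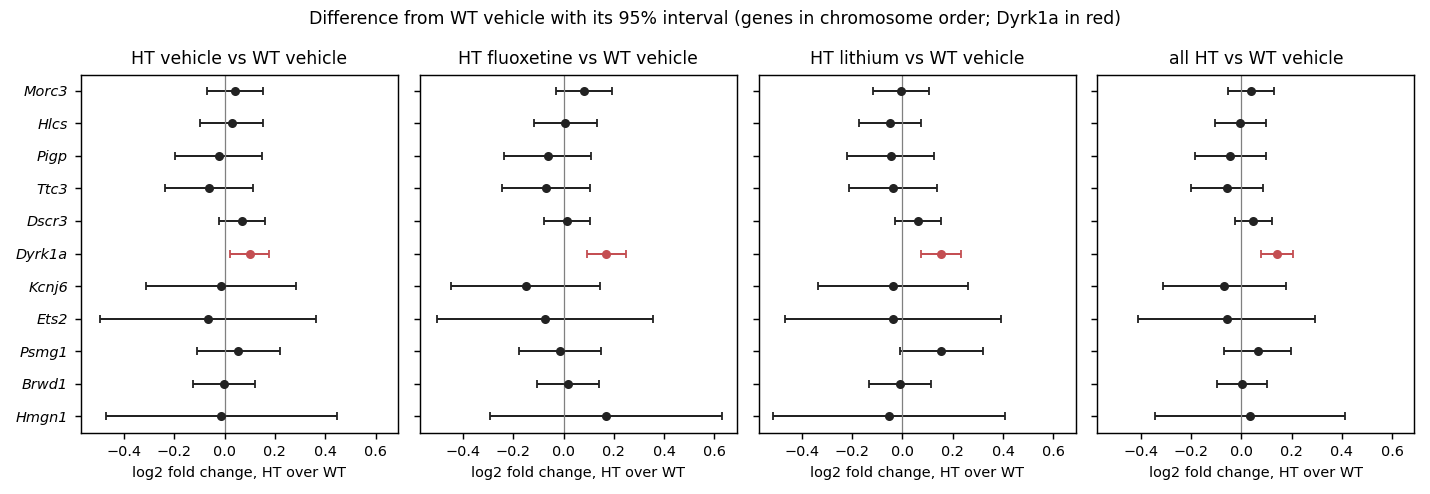
Log2 fold change of Dyrk1a (red) and its 10 neighbours (black) in chromosome order, for each HT arm and for all HT arms over WT vehicle; points are estimates from limma and bars their 95% intervals. Every neighbour's interval includes 0 in each panel, and those of Hmgn1, Ets2 and Kcnj6 are the widest.

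Each arm was then set against WT vehicle by itself. These comparisons share the 6 WT libraries. In HT vehicle against WT vehicle, 0 of 10 neighbours were called, against 0% of all genes by adjusted p and 2.70% by unadjusted p, and the differences ran from -0.07 (Ets2) to 0.07 (Dscr3). In HT fluoxetine against WT vehicle, 0 of 10 were called, against 0% and 4.38%, and the range was from -0.15 (Kcnj6) to 0.17 (Hmgn1). Without the 6 libraries of high bulb score both turned sign, to 0.028 for Kcnj6 and -0.018 for Hmgn1, as did 6 of 10 neighbours in all, and the range was from -0.096 (Pigp) to 0.11 (Ets2). The same omission gave 0.11 for Kcnj6 and -0.14 for Hmgn1 in HT vehicle against WT vehicle. In HT lithium against WT vehicle, 0 of 10 were called, against 0% and 2.56%, and the range was from -0.054 (Hmgn1) to 0.15 (Psmg1). No neighbour had an unadjusted p under 0.05 by limma, edgeR or DESeq2 in any of these. With the bulb score as a covariate, limma gave Ttc3 an unadjusted p of 0.0371 in HT vehicle and Psmg1 one of 0.0297 in HT lithium, with adjusted p of 0.480 and 0.682. The shares of all genes given above belong to the fit without that covariate and are not the background of these p-values.

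The labels name 2 batches. P40_L2 holds 7 libraries, all 6 of HT lithium and HT fluoxetine female 3, so lithium and batch cannot be told apart except through that 1 fluoxetine library. Within P40_L1 the fluoxetine values for Kcnj6 and Hmgn1 were -0.19 and 0.18, against -0.15 and 0.17 over both batches. With batch as a term, the lithium value over WT vehicle was -0.26 ± 0.34 for Kcnj6 and 0.25 ± 0.19 for Psmg1 (log2, SE). Without the term the values were -0.037 ± 0.14 and 0.15 ± 0.079, and neither gene was called. The SE was larger with the term, which rests on that 1 fluoxetine library.

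Among the chromatin genes, Hmgn1, which encodes a small protein that binds nucleosomes and loosens chromatin, spread most. Hmgn1 had a median normalised count of 1169 in HT vehicle libraries (1008 to 1766), 1274 in HT fluoxetine libraries (1026 to 2261), 1127 in HT lithium libraries (989 to 2185) and 1215 in WT vehicle libraries (993 to 1931). The arms overlapped almost entirely, and the highest libraries of each arm were those with a high bulb score. Its difference between all HT arms and WT vehicle was 0.034 ± 0.18 (log2, SE), with means of 1359 ± 421 in HT (SD, n = 18) and 1308 ± 339 in WT (SD, n = 6). Brwd1 had a median normalised count of 4063 in HT vehicle libraries (3823 to 4245), 4221 in HT fluoxetine libraries (3315 to 4527), 4015 in HT lithium libraries (3752 to 4327) and 4064 in WT vehicle libraries (3829 to 4308). Brwd1 is a bromodomain protein that reads acetylated histones, and its arms lay on top of each other, with the lowest library, HT fluoxetine male 2, well below the rest. Its difference was 0.0025 ± 0.048. Morc3 had a median normalised count of 757 in HT vehicle libraries (731 to 806), 794 in HT fluoxetine libraries (708 to 868), 735 in HT lithium libraries (698 to 821) and 739 in WT vehicle libraries (661 to 818). Morc3, a nuclear ATPase that silences chromatin, had all arms overlapping and a difference of 0.039 ± 0.043.

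Ets2 encodes a transcription factor of the ETS family that acts downstream of growth factor signalling. Ets2 had a median normalised count of 1977 in HT vehicle libraries (1270.3 to 2110.2), 1931 in HT fluoxetine libraries (1046 to 2473), 1959.6 in HT lithium libraries (1147 to 2006) and 1957 in WT vehicle libraries (1337 to 2102). In each arm a low pair or a single low library made up the lower end, and the remaining libraries ran from 1758 to 2473. The difference of all HT from WT vehicle was -0.059 ± 0.17, with means of 1815 ± 402 in HT and 1861 ± 283 in WT (SD, n = 18 and 6).

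Kcnj6 encodes GIRK2, a subunit of the potassium channels that G protein-coupled receptors open to quiet neurons. Kcnj6 had a median normalised count of 1139 in HT vehicle libraries (908 to 1344), 1084 in HT fluoxetine libraries (750.2 to 1321), 1177 in HT lithium libraries (778 to 1283) and 1126 in WT vehicle libraries (1037 to 1233). The HT arms reached lower than WT, and every HT library under the WT range had a high bulb score. The difference was -0.067 ± 0.12 over all HT and -0.15 ± 0.14 in HT fluoxetine, where the interval was a change of -26.8% to 10.7%.

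The next genes act in protein turnover and transport. Ttc3 encodes a ubiquitin ligase that targets the active form of the kinase Akt. Ttc3 had a median normalised count of 25179 in HT vehicle libraries (22395 to 27811), 25811 in HT fluoxetine libraries (20199 to 28053), 25636 in HT lithium libraries (21751 to 27658) and 26061 in WT vehicle libraries (23485 to 27612). The arms overlapped, with 5 of 18 HT libraries below the lowest WT library, each with a high bulb score. Its difference from WT vehicle was -0.056 ± 0.068 over all HT, and -0.0061 ± 0.043 without the libraries of high bulb score. With the bulb score as a covariate it was -0.084, with an unadjusted p of 0.0478 and an adjusted p of 0.487 by limma.

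Psmg1 encodes a chaperone for assembly of the proteasome core. Psmg1 had a median normalised count of 213 in HT vehicle libraries (183 to 246), 201 in HT fluoxetine libraries (178 to 218), 224 in HT lithium libraries (213 to 238) and 197 in WT vehicle libraries (188 to 232). The HT lithium libraries were the tightest, and 6 of 6 lay above the WT mean, while WT vehicle female 1 was as high as they were. The difference of HT lithium from WT vehicle was 0.15 ± 0.079, with an adjusted p of 0.9999 by limma. In a two-sided exact permutation test of 6 against 6 libraries the unadjusted p was 0.0195, the smallest of 60 such tests over 10 neighbours and 6 comparisons and the one below 0.05. All those lithium libraries are of batch P40_L2. Dscr3 had a median normalised count of 897 in HT vehicle libraries (861 to 953), 866 in HT fluoxetine libraries (801 to 951), 904 in HT lithium libraries (877 to 922) and 858 in WT vehicle libraries (807 to 972). Dscr3 is a subunit of the retriever complex, which returns membrane proteins from endosomes to the surface. HT fluoxetine and WT vehicle had lower medians than the other arms but overlapped with them, and the highest library of all was WT vehicle male 1. The difference over all HT was 0.048 ± 0.036, with 14 of 18 HT libraries above the WT mean.

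The remaining pair serve biosynthesis. Pigp encodes a subunit of the enzyme that starts the glycolipid anchor of cell surface proteins. Pigp had a median normalised count of 357 in HT vehicle libraries (289 to 429), 344 in HT fluoxetine libraries (327 to 372), 352 in HT lithium libraries (318 to 384) and 356 in WT vehicle libraries (335 to 405). HT vehicle held both the lowest and the highest library of all, so its range covered the other arms, and the difference over all HT was -0.045 ± 0.067. Hlcs encodes the enzyme that attaches biotin to the carboxylases. Hlcs had a median normalised count of 464 in HT vehicle libraries (443 to 481), 460.4 in HT fluoxetine libraries (426 to 491), 432 in HT lithium libraries (402 to 485) and 463 in WT vehicle libraries (399 to 497). No arm stood apart, and the difference was -0.0049 ± 0.049.

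**Figure D2:**
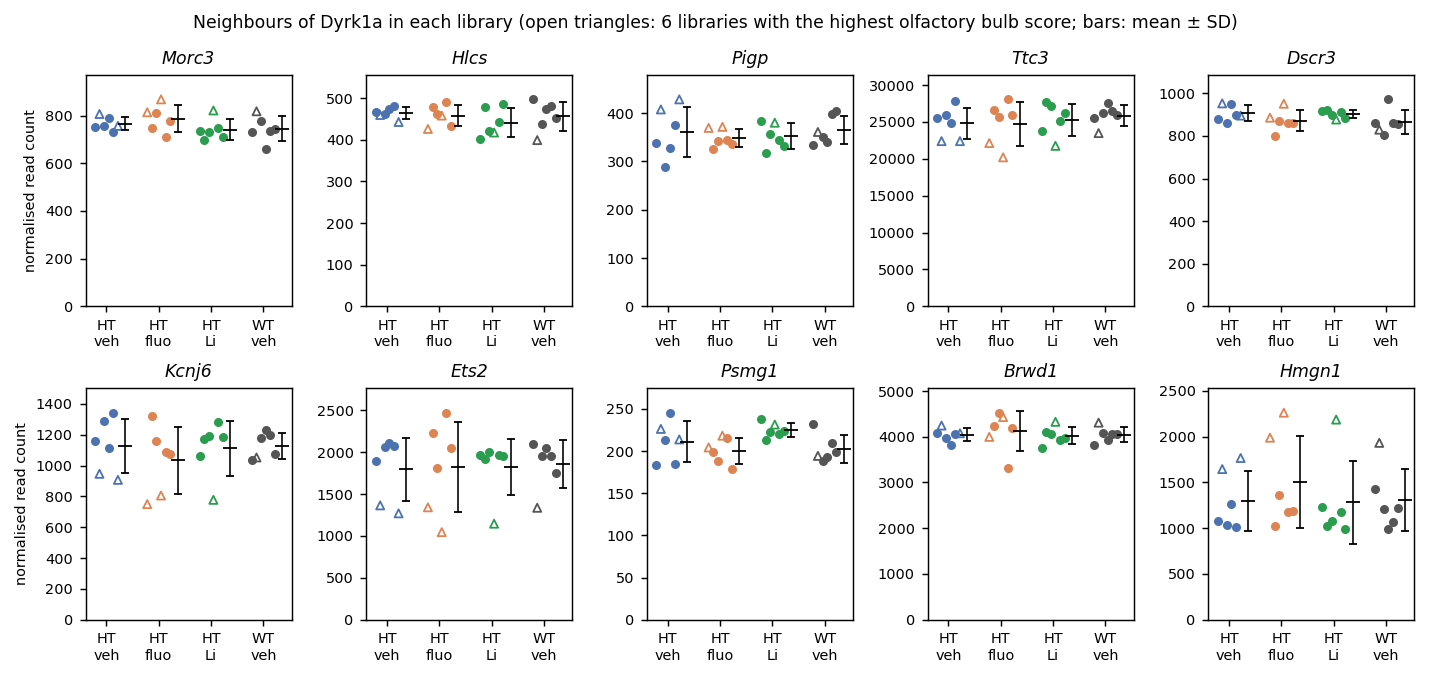
Normalised read count of each neighbour in 24 libraries by arm, from an axis that starts at 0; open triangles are the 6 libraries with the highest olfactory bulb score, and the bar beside each arm is its mean and SD (n = 6). The arms overlap for every gene, and the triangles lie at the top for Hmgn1 and at the bottom for Ets2, Ttc3 and, outside WT, Kcnj6.

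Levels were compared between the genes as normalised counts per kb of annotated exon (mean ± SD over 24 libraries). Ttc3 was the most abundant at 1552 ± 132 per kb, followed by Hmgn1 at 418 ± 123 and Ets2 at 316 ± 64.1, which differed by less than the SD of Hmgn1. Dscr3 at 241 ± 11.96 and Brwd1 at 200.1 ± 12.1 came next, then Pigp at 179.6 ± 16.3. Psmg1 at 156 ± 13.9, Kcnj6 at 144 ± 21.5 and Morc3 at 139.9 ± 8.65 were not separated beyond the SD of Kcnj6. Hlcs was the lowest at 51.0 ± 3.11. Counts per kb of exon union understate genes that use short transcripts.

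Within the HT mice the drugs were set against vehicle. In HT fluoxetine against HT vehicle, 0 of 10 neighbours were called, against 0.0119% of all genes by adjusted p and 5.71% by unadjusted p. Hmgn1 had the highest difference at 0.18 ± 0.22 and Kcnj6 the lowest at -0.14 ± 0.14, both of the size of their SE. With the bulb score as a covariate they were 0.047 and -0.060, and the highest and lowest were then Ets2 at 0.10 and Psmg1 at -0.092. Without the 6 libraries of high bulb score Hmgn1 had 0.12 and Kcnj6 -0.079. In HT lithium against HT vehicle, 0 of 10 were called, against 0.0119% by adjusted p and 2.75% by unadjusted p. Psmg1 at 0.099 ± 0.079 and Hlcs at -0.077 ± 0.060 were the highest and the lowest. Without the 6 libraries of high bulb score, 5 of 10 neighbours had the other sign in HT lithium against HT vehicle. Psmg1 at 0.12 and Hlcs at -0.072 were still the highest and the lowest. With all libraries, the counts by edgeR and DESeq2 were 0 of 10 in both drug comparisons. Of 16825 genes, edgeR called 2 and DESeq2 16 for fluoxetine, and edgeR 0 and DESeq2 3 for lithium. No neighbour had an unadjusted p under 0.05 in either comparison by any of the 3 tools.

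Whether the genotype difference depended on sex was tested as the female effect minus the male effect. For HT vehicle against WT vehicle 0 of 10 neighbours were called, against 0% of all genes, and for all HT against WT vehicle 0 of 10, against 0%. The widest gap was for Hmgn1, at -0.60 ± 0.36 for all HT (interval -1.36 to 0.15, adjusted p 0.795 by limma). Adding the bulb score to the model gave a gap of -0.26 ± 0.16. In females the mean of Hmgn1 was 1251 ± 342 in HT vehicle, 1459 ± 488 in HT fluoxetine, 1111 ± 109 in HT lithium and 1521 ± 371 in WT. In males it was 1344 ± 386, 1541 ± 623, 1449 ± 644 and 1095 ± 116 in the same order (SD, n = 3 each). With 3 libraries a group the intervals of all neighbours were wide, and of the high-bulb libraries the WT one is female and the HT lithium one male.

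The listed genes are a choice from a denser stretch, so all tested chromosome 16 genes other than Dyrk1a were described by distance from its start site. Up to 1 Mb 13 genes were tested, from 1 to 5 Mb 53, and from 5 to 20 Mb 34. In all HT against WT vehicle 0 of these were called by limma, edgeR or DESeq2. At an unadjusted p under 0.05 by limma there were 0 of 13, 1 of 53 and 1 of 34, which is 0%, 1.89% and 2.94%, against the 2.69% of all genes given above. The median difference was -0.0049 up to 1 Mb and -0.0045 over all genes tested, and the median size of the difference was 0.060 and 0.046. None of the other genes within 5 Mb was called in any comparison of an HT arm with WT. The 3 with the smallest p over all HT did not pass: Dscam, a neuronal adhesion molecule, averaged 2601 ± 115 in HT and 2736 ± 83.1 in WT (log2 difference ± SE -0.074 ± 0.031). Pcp4, a calmodulin regulator, averaged 5241 ± 707 in HT and 5809 ± 445 in WT (-0.16 ± 0.080). C2cd2 averaged 409 ± 33.1 in HT and 377 ± 41.2 in WT (0.12 ± 0.065, SD, n = 18 and 6). Each had an adjusted p of 0.9996 by limma.

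A second list held 51 further chromosome 16 genes of the Down syndrome region and its flank, of which 47 were in the table and 45 were tested. In all HT against WT vehicle, 0 of 45 were called in either direction, against 0% of all genes by limma. At an unadjusted p under 0.05 by limma there was 1 of 45, or 2.22%, against 2.69% of all genes. That gene was Dscam, already counted above. The list overlaps the distance windows, so its counts are not separate from theirs. The median difference of the 45 was -0.010, beside -0.0045 over all genes. The count of calls was 0 of 45 in every other comparison made here as well, by limma, edgeR and DESeq2. In those, at most 0.0119% of all genes were called by limma, 2 genes by edgeR and 18 by DESeq2. Sim2, Ripply3, Fam3b and Tmprss2 were the ones without values.

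**Figure D3:**
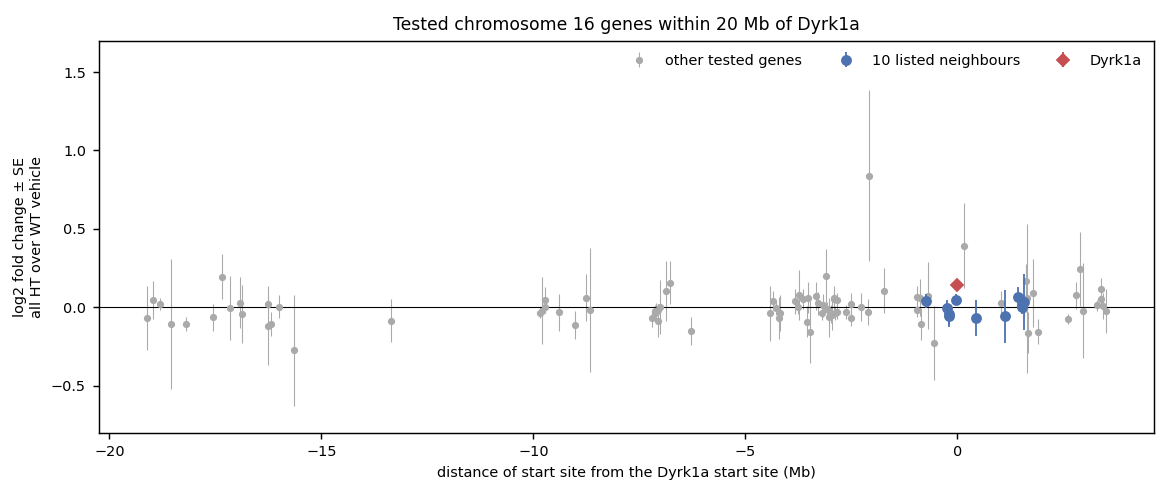
Log2 fold change (± SE) between all HT arms and WT vehicle for the tested genes within 20 Mb of Dyrk1a, against the distance of their start sites in Mb; the 10 neighbours are blue, Dyrk1a red and other genes grey. The neighbours lie between -0.07 and 0.065, on both sides of 0.

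The neighbours also varied with the bulb score. This relation was looked at after the spread of Hmgn1 and Ets2 had been seen. The slope on the score was fitted for all genes with the group means in the model. Of the 10 neighbours, 7 had a slope at an adjusted p under 0.05 by limma, against 52.6% of all genes, a share not far above that background. Hmgn1 had a slope of 0.17 ± 0.019 per unit of score (log2, SE), Pigp 0.052 ± 0.011 and Morc3 0.030 ± 0.0082, all higher in bulb-rich libraries. Ets2 had -0.14 ± 0.025, Kcnj6 -0.097 ± 0.018, Ttc3 -0.057 ± 0.0097 and Hlcs -0.025 ± 0.010, all lower. Psmg1 (0.028 ± 0.014), Brwd1 (0.011 ± 0.011) and Dscr3 (0.010 ± 0.0084) did not pass. In size the slope of Hmgn1 was exceeded by 6.71% of all genes and that of Ets2 by 10.5%.

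The values were then set side by side for the 6 libraries with the highest score and the rest. Hmgn1 had 1645 to 2261 normalised counts in them and 989 to 1422 in the other 18. Ets2 had 1046 to 1366 in the 6 and 1758 to 2473 in the others, and Ttc3 had 20199 to 23485 and 23802 to 28053 in the same sets. These 3 of 10 neighbours did not overlap between the sets, against 18.4% of all genes. Kcnj6 had 750.2 to 1053 in the 6, which touched the 1037 to 1344 of the others. Both sets hold HT and WT libraries, with 5 HT and 1 WT among the 6. Summed bulb markers were 18237 to 26071 in the 6 and 1353 to 10304 in the others. Within the other 18 libraries, 1 of 10 neighbours kept a slope that passed, against 5.06% of all genes: Hmgn1, at 0.09 ± 0.018 with an adjusted p of 0.0115 by limma. In those 18 the slope of Ets2 was -0.014 ± 0.020 and that of Kcnj6 -0.035 ± 0.019. The slopes of Ets2 and Kcnj6 over all 24 libraries thus rest largely on the 6. Ttc3 had -0.029 ± 0.014 in the 18, against -0.057 ± 0.0097 over all 24. The slope of Hmgn1 was 0.17 ± 0.019 over all 24, so it too was smaller in the 18. Pigp had 0.038 ± 0.021, and Hlcs (-0.027 ± 0.018) and Morc3 (0.027 ± 0.014) had slopes about as large as over all 24, with a larger SE. The part of tissue makeup in these slopes was not tested.

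Without these 6 libraries 0 of 10 neighbours were called between all HT and WT vehicle, as with them, but the order of the differences changed: Hmgn1 was the lowest at -0.095 and Kcnj6 the highest at 0.066, each with the other sign than in all 24 libraries. With the score as a covariate the differences ran from -0.13 (Ets2) to 0.12 (Hmgn1), also with 0 called, and the SE of Hmgn1 was 0.078, against 0.18 without the covariate. Without the 4 libraries of highest Drd2 or Ttr, 0 of 10 were called as well, and HT fluoxetine against WT vehicle had -0.25 for Kcnj6 and 0.27 for Hmgn1. Of 16825 genes, limma called 0 between all HT and WT vehicle without the 6 libraries, 5 with the covariate and 0 without the 4.

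**Figure D4:**
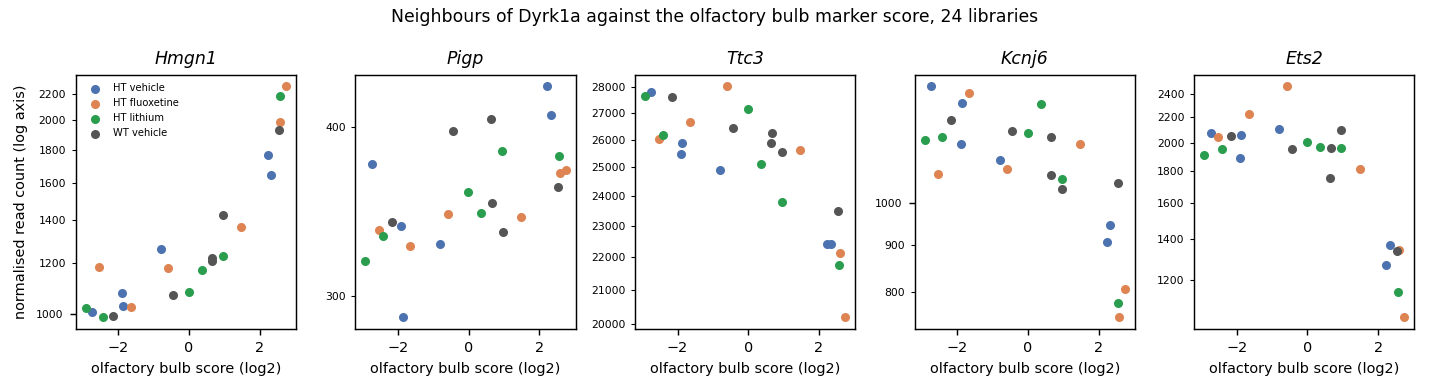
Normalised read count (log axis) of 5 neighbours against the olfactory bulb marker score (log2) in 24 libraries, coloured by arm. On average Hmgn1 and Pigp are higher, and Ttc3, Kcnj6 and Ets2 lower, in the 6 libraries at the right, which come from all 4 arms.

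For each neighbour the genes with the most similar pattern were found by Pearson's r of log2(value + 1) over the 24 libraries after the group means were taken out. These values are descriptions, since the libraries share depth and tissue makeup. For Hmgn1 they were Peli2 (0.995, and 0.975 in the 18 libraries) and Cited2 (0.993, and 0.953 in the 18 libraries). For Ets2 they were Adora1 (0.991, and 0.956 in the 18 libraries) and App (0.988, and 0.916 in the 18 libraries), the gene for the amyloid precursor, which lies on chromosome 16 too. Ttc3 was most like Napg (0.986, and 0.943 in the 18 libraries) and Rab6a (0.986, and 0.959 in the 18 libraries). Kcnj6 was most like St8sia5 (0.958, and 0.861 in the 18 libraries) and Slc4a8 (0.957, and 0.880 in the 18 libraries). Brwd1 went with Smg1 (0.948, and 0.956 in the 18 libraries) and Tnrc6b (0.924, and 0.920 in the 18 libraries), and Morc3 with Mau2 (0.918, and 0.838 in the 18 libraries) and Gm43041 (0.906, and 0.845 in the 18 libraries). Pigp went with Efna4 (0.916, and 0.820 in the 18 libraries) and Cldn19 (0.885, and 0.829 in the 18 libraries), and Psmg1 with Ctnnb1 (0.849, and 0.900 in the 18 libraries) and Pard3 (0.832, and 0.839 in the 18 libraries). Hlcs had Aldh1a7 (0.850, and 0.796 in the 18 libraries) and Bet1l (0.835, and 0.714 in the 18 libraries). Dscr3 had the lowest values, with Nme4 (0.743, and 0.784 in the 18 libraries) and H2-Q7 (0.735, and 0.616 in the 18 libraries). No neighbour's closest pair held another of the 10.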

How the data were processed

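RNA from prefrontal cortex was prepared with the TruSeq Stranded mRNA kit, per the labels' protocols. The authors deposited 1 table of normalised read signal for 18240 Ensembl genes in 24 libraries. The submitters' processing notes name Salmon 0.11.2, R 3.6.0, DESeq2 1.19.11 and GRCm38, with no order or role. Within a library the deposited signal steps by whole reads divided by a size factor: 100% of values came out whole within 0.01 of a read. Whole values can be rounded estimates. In every column the worth of a read was found from the lowest values and refined with larger ones. In HT vehicle female 2 a read is worth 0.997. Depth was 24133344 to 35940460 recovered reads, and for count data precision grows with it. Genes of lowest level had already been left out, since the smallest mean was 1.63.

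Names and positions came from GENCODE M21, which matched 18227 identifiers and not 13. Differences were tested by limma 3.58.1 (R 4.3.3, trend on mean level) after log2(value + 1), on 16825 genes averaging at least 10, leaving out 1415. All 24 libraries shared 1 fit with 8 group means, both sexes weighted equally, and Benjamini-Hochberg adjustment over all genes at 0.05. A pseudocount of 1 understates the fold change of low genes. The table is not raw counts, so edgeR 4.0.16 and DESeq2 1.42.0 were run on recovered reads as alternatives only. Single genes were also tested by two-sided exact permutation. No 2 libraries agreed within sampling noise (smallest chi-square per gene 4.30). The steps were tested on simulated data. Promoters came from RefSeq. The window nearest each start was used.

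The 10 genes, the lists and the alternatives were chosen with earlier results of these data known. Named genes were all 10 neighbours, Dyrk1a, other genes within 5 Mb that were called or else the 3 with the smallest p, and 2 most similar genes for each neighbour. Pairing of libraries by replicate number was not seen in the values, although a weak pairing would not show.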

Additional observations from a re-analysis of the deposited data

Results flagged for a closer look

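In 40 sets of 6 libraries, 1 for each neighbour in each arm, 3 held a library whose gap to the nearest other exceeded Dixon's 95% critical value. Chance flags about 1 in 20 sets. Ets2 was 1147 normalised counts in HT lithium male 1, against 1915 to 2006 in the other HT lithium libraries. Hmgn1 was 2185 in the same library, against 989 to 1231 in the others. HT lithium male 1 is the 1 lithium library among the 6 with the highest bulb score, at 2.56. Dscr3 was 972 in WT vehicle male 1, against 807 to 863 in the other WT libraries, and that library had a bulb score of -2.16. Whether tissue makeup had a part in these values was not tested.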

How the results depend on the processing

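The count of called neighbours was 0 of 10 in each of the 8 tests, and it stayed 0 in 220 recomputed counts over 39 settings: other pseudocounts and filters, TMM scaling, edgeR, DESeq2, a batch term, batch P40_L1 alone, the compared groups alone, the bulb score as covariate, leaving out doubtful libraries, and leaving out each library in turn (0 to 0). Among 1650 recomputed differences 179 changed sign, none of them called, and the smallest adjusted p was 0.480, for Ttc3 in HT vehicle against WT vehicle with the bulb score as covariate. The largest move was 0.22, for Kcnj6 in HT lithium against HT vehicle, to -0.24 ± 0.34 (SE) with the batch term. With the replicate block the count was 0 of 10 in each test, and Kcnj6 in all HT against WT vehicle had -0.07, as without it. Pairing by replicate number was not seen: the mean correlation of deviations was -0.009 over 84 same-number pairs and 0.008 over 168 other pairs. Of 24 libraries, 6 correlated best with their own number. Single same-number pairs ran from -0.695 to 0.724, so a weak pairing would not show in this check. Leaving out 1 library moved all HT against WT vehicle between -0.16 and 0.00 for Ets2 and between -0.04 and 0.13 for Hmgn1. Over all genes, limma and edgeR called 0 in all HT against WT vehicle and DESeq2 called 7, the bulb covariate gave 5, and in HT fluoxetine against WT vehicle the counts were 0, 0, 18 and 7. In HT lithium against WT vehicle they were 0, 0, 5 and 4. In HT fluoxetine against HT vehicle they were 2, 2, 16 and 4, with 0 under the replicate block, and in HT lithium against HT vehicle 2, 0, 3 and 2. In HT vehicle against WT vehicle the bulb covariate gave 3, against 0 by the 3 tools. The cause was not tested. The fit of all HT against WT vehicle within P40_L1, without lithium, was chosen after seeing the data and also called 0 of 10. With 6 libraries an arm and the spread of Ets2 and Hmgn1, small differences in these genes were not detectable.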
